A study of Mus musculus with 238 samples.

Results

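The 2 corticosteroid receptor genes of the mouse, Nr3c1 and Nr3c2, and the gene of the enzyme that makes active corticosterone inside cells, Hsd11b1, were followed through 15 brain regions and liver of aged mice. They are 3 of the 21076 genes in the count table, chosen by symbol, and all 3 were measured in all 238 libraries. Every mouse was of the C57BL/6JN strain and 19 months old. In the dietary experiment, 9 females were either dietary restricted (aDR, 5 mice, whose liver libraries carry the label DR) or fed ad libitum (AL, 4 mice). In the plasma experiment, 7 males received retro-orbital injections of young mouse plasma (YMP, 3 mice) or of PBS (4 mice). Diet was given to females and plasma to males, so sex and experiment cannot be told apart. Each mouse gave at most 1 library per region, which left 2 to 5 libraries per treatment and region, and liver was taken in the dietary experiment.

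Corticosterone crosses the cell membrane and binds receptors held in the cytoplasm by heat shock protein chaperones, after which the complex enters the nucleus and acts on target genes. Nr3c1 encodes the glucocorticoid receptor, which binds corticosterone with low affinity and is found in most cell types. Nr3c2 encodes the mineralocorticoid receptor, which binds the same hormone with high affinity and is best known in the brain for its abundance in hippocampal neurons. Hsd11b1 encodes 11beta-hydroxysteroid dehydrogenase type 1, an enzyme of the endoplasmic reticulum that regenerates corticosterone from its inert 11-keto form and is abundant in liver. H6pd supplies the NADPH that this enzyme uses, and Hsd11b2 encodes the enzyme that runs the opposite reaction. Fkbp5 is a chaperone partner that lowers the receptor's affinity for hormone and is itself induced by glucocorticoids.

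Library totals ranged between 0.606 and 32.4 M counts (M, mega), with the median library at 8.44 M, and 6 of them were under 2 M. The lowest count of a library in the brain was 50 for Nr3c1, 33 for Nr3c2 and 3 for Hsd11b1. Levels are given as CPM, counts scaled to the library's total. Every library is of homogenised tissue, so fewer cells of a type and less RNA per cell cannot be told apart. Summed markers of the labelled structure were under 40% of the median of their region in 9 libraries, 4 of choroid plexus, 4 of pons and 1 of hypothalamus. The choroid plexus libraries also carried neuron markers at 4127 to 6705 CPM and hippocampus markers at 562 to 1021 CPM. Such sums are not specific to hippocampal tissue. The same hippocampus markers summed to 471 to 918 CPM in liver, 383 to 442 CPM in motor cortex and 897 to 1192 CPM in posterior hippocampus. Several results that lean on the choroid plexus libraries or on those low in markers are given with their marker values, and what the markers contribute to them was not tested. The corpus callosum libraries carried striatum markers at 1772 to 4318 CPM, beside a median of 4945 CPM in caudate putamen. Their choroid plexus markers ran from 1.31 to 18411 CPM. What such tissue contributes to the corpus callosum levels was not tested.

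Nr3c1 had the narrowest regional range of the 3 genes. In the AL and PBS control mice it averaged 190 CPM ± 22.2 (SD, n = 8) in thalamus, 166 ± 7.15 (SD, n = 8) in motor cortex, 163 ± 6.95 (SD, n = 7) in visual cortex and 154 ± 7.27 (SD, n = 7) in cerebellum. Its lowest brain levels were 85 CPM ± 4.54 (SD, n = 8) in olfactory bulb, 88.7 ± 7.94 (SD, n = 8) in medulla and 92.2 ± 6.36 (SD, n = 7) in pons. The highest regional mean was thus 2.24 times the lowest. The remaining 8 brain regions lay between: 142 CPM in corpus callosum, 130 in caudate putamen, 124 in hypothalamus, 122 in SVZ, 122 in posterior and 121 in anterior hippocampus, 107 in entorhinal cortex and 98.3 in choroid plexus. Liver, at 114 CPM ± 16.2 (SD, n = 4, AL mice), was close to the median of the brain regions, with a ratio of 0.934 to it. The gene lies at chr18:39410545-39519421 on the minus strand in the GENCODE M21 annotation of GRCm38 (ENSMUSG00000024431).

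Each region was tested against the mean of the other 14 in the control mice with edgeR's quasi-likelihood test and Benjamini-Hochberg adjustment over all genes. Experiment was a covariate and the mouse was not a block, so regions of the same mouse counted as independent. Nr3c1 was higher in 6 regions: thalamus (log2 difference 0.69, adjusted p = 4.4e-30), motor cortex (0.51), visual cortex (0.46), corpus callosum (0.27), cerebellum (0.23) and caudate putamen (0.17). It was lower in 5: olfactory bulb (-0.68, adjusted p = 3.52e-26), medulla (-0.47), pons (-0.44), choroid plexus (-0.33) and entorhinal cortex (-0.21). With AL mice alone the caudate putamen difference was 0.11 and not called (edgeR adjusted p = 0.0894). With the mouse as a block, hypothalamus was also called lower (-0.10, edgeR adjusted p = 0.0411). Regional differences of this kind were common among all genes tested. The share called in either direction was 58.5% for thalamus, 60.3% for motor cortex, 57.2% for visual cortex, 54.1% for corpus callosum, 72% for cerebellum, 65.2% for caudate putamen, 74.9% for olfactory bulb, 70.6% for medulla, 61.7% for pons, 46.3% for choroid plexus and 55.9% for entorhinal cortex. Between neighbours in the order of levels, 5 of 14 steps passed the same test. These were thalamus over motor cortex (0.17, 59.1% of all genes called), visual cortex over cerebellum (0.21, 70.4%), caudate putamen over hypothalamus (0.25, 67.4%), anterior hippocampus over entorhinal cortex (0.14, 45.3%) and medulla over olfactory bulb (0.19, 75.9%). The other 9 steps were not called, so hypothalamus, SVZ and both hippocampal regions have no settled order.

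**Figure D1:**
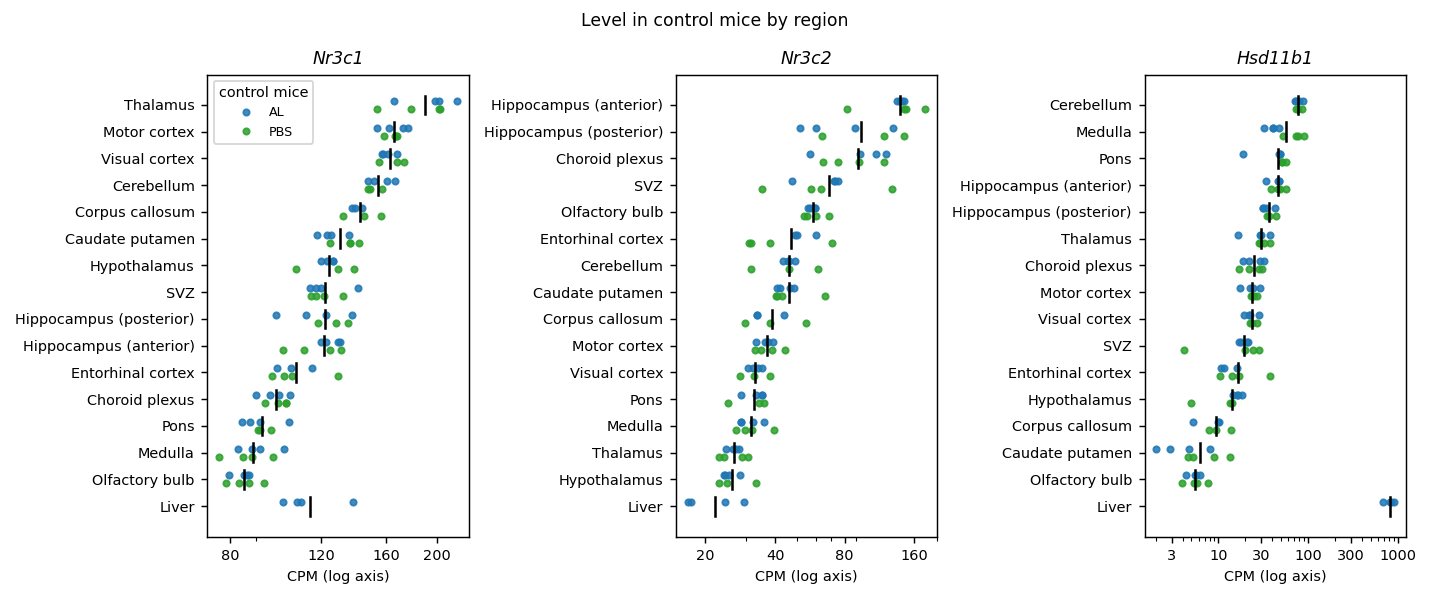
Level of Nr3c1, Nr3c2 and Hsd11b1 in each control library, in CPM on a log axis, with 1 point per AL or PBS mouse and regions ordered by mean. Nr3c1 spans 2.24-fold over the brain regions, Nr3c2 spans 5.34-fold with anterior hippocampus highest, and Hsd11b1 spans 14.1-fold with liver far to the right of all brain regions.

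Nr3c2 was concentrated in the hippocampus. It averaged 139 CPM ± 26.8 (SD, n = 8) in anterior hippocampus and 93.8 ± 37.2 (SD, n = 7) in posterior hippocampus. Choroid plexus followed at 91.1 CPM ± 24.0 (SD, n = 8) and SVZ at 68.7 ± 27.5 (SD, n = 8). These 4 regions were the ones called higher than the rest of the brain. The levels then fell through olfactory bulb (58.6 CPM ± 4.76, SD, n = 8), entorhinal cortex (47.1 ± 14.7, SD, n = 7), cerebellum (46.2 ± 8.82, SD, n = 7) and caudate putamen (45.9 ± 8.60, SD, n = 8). Thalamus, which led for Nr3c1, was next to last for Nr3c2 at 26.5 CPM ± 2.56 (SD, n = 8), and hypothalamus was last at 26.1 ± 3.49 (SD, n = 7). Corpus callosum, motor cortex, visual cortex, pons and medulla held 31.6 to 38.7 CPM. Liver, at 21.9 CPM ± 6.04 (SD, n = 4), was under all 15 brain means. In choroid plexus, AL mice 63 and 66 held 120 and 109 CPM of Nr3c2, with choroid plexus markers at 981 and 653 CPM. The regional median of these markers was 6948 CPM. The other libraries low in them, of aDR mouse 67 and YMP mouse 73, held 87.6 and 118 CPM of Nr3c2. The part of these markers in the choroid plexus level was not tested.

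Against the other regions, Nr3c2 was higher in anterior hippocampus by 1.63 on the log2 scale (SE 0.0993, edgeR adjusted p = 6e-28), in posterior hippocampus by 1.06, in choroid plexus by 1.02 and in SVZ by 0.49. Without the libraries low in markers of their region the choroid plexus difference was 0.88. It was lower in hypothalamus (-1.04), thalamus (-0.89), medulla (-0.61), pons (-0.57), visual cortex (-0.54) and motor cortex (-0.34). Of all genes, 39.4% were called for anterior hippocampus, 47.7% for posterior hippocampus, 46.3% for choroid plexus, 56.8% for SVZ and 61.8% for hypothalamus. The share was 58.5% for thalamus, 70.6% for medulla, 61.7% for pons, 57.2% for visual cortex and 60.3% for motor cortex. With PBS mice alone, 3 regions in place of 6 were called lower and SVZ was not called higher (0.49, edgeR adjusted p = 0.0561). With the mouse as a block, olfactory bulb was also called higher (0.23, edgeR adjusted p = 0.0254) and corpus callosum lower (-0.30, adjusted p = 0.0295). Neighbouring regions were called in 2 of 14 steps, anterior over posterior hippocampus (0.53, edgeR adjusted p = 0.00922, 23.4% of all genes called) and choroid plexus over SVZ (0.49, edgeR adjusted p = 0.00673, 43.5%). The remaining 12 steps, from SVZ down to hypothalamus included, were not called one by one.

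The spread of Nr3c2 within the hippocampus was wide, from 42.7 to 169 CPM over the 15 posterior libraries of all treatments and from 49.6 to 184 CPM over the 16 anterior ones. This spread was set beside 7 hippocampus markers, summed, a relation looked at after the values were seen, and p-values were adjusted over the 4 relations computed, of which 2 are given. In anterior hippocampus, where the markers summed to 686 to 1591 CPM, Nr3c2 was higher where they were higher. Pearson's r was 0.84 over 16 libraries (permutation p = 9e-05, adjusted 0.00036) and Spearman's rho was 0.57 (permutation p = 0.0224, adjusted 0.0299). There r was 0.57 without the 2 most extreme libraries, 0.89 in the dietary experiment (n = 9) and 0.86 in the plasma experiment (n = 7). In posterior hippocampus the markers lay between 897 and 1192 CPM, with r = 0.49 over 15 libraries (permutation p = 0.0617, adjusted 0.0823) and rho = 0.63 (permutation p = 0.0142, adjusted 0.0284). There r was 0.49 without the 2 most extreme libraries, 0.70 in the dietary experiment (n = 9) and 0.08 in the plasma experiment (n = 6), so it did not hold within both. The part of these markers in the step between both hippocampal regions was not tested.

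**Figure D2:**
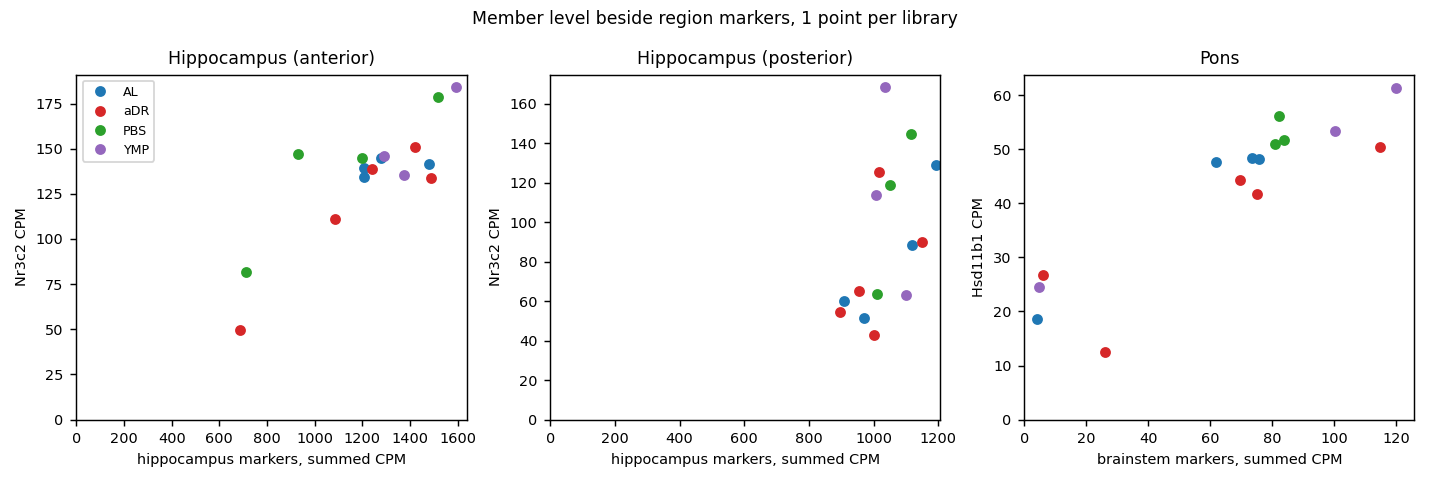
Level of Nr3c2 or Hsd11b1 in each library (vertical axis, CPM) against the summed CPM of markers (horizontal axis), with 1 point per library coloured by treatment. Nr3c2 climbs with hippocampus markers in anterior hippocampus and scatters widely in posterior hippocampus, and the 4 pons libraries with little brainstem marker RNA hold 12.5 to 26.8 CPM of Hsd11b1 against 41.7 to 61.4 in the other 11. The share of all genes that part between these pons libraries is not given.

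Hsd11b1 had the widest range of the 3 genes and its own regional order. Cerebellum led the brain at 78.0 CPM ± 6.69 (SD, n = 7). Medulla followed at 56.7 ± 20.7 (SD, n = 8), pons at 46.0 ± 12.4 (SD, n = 7), anterior hippocampus at 45.6 ± 6.61 (SD, n = 8) and posterior hippocampus at 36.3 ± 5.09 (SD, n = 7). The second place of medulla came from the PBS mice, at 73 CPM on average. In AL mice medulla averaged 40.3 CPM, under anterior hippocampus (43.7) and pons (40.8). Thalamus, choroid plexus, motor cortex and visual cortex held 23.5 to 29.9 CPM, while SVZ, entorhinal cortex and hypothalamus held 14 to 19.2. The lowest levels were in corpus callosum (9.37 CPM ± 2.81, SD, n = 6), caudate putamen (6.23 ± 3.77, SD, n = 8) and olfactory bulb (5.54 ± 1.13, SD, n = 8). Liver stood far above the brain at 811 CPM ± 90.9 (SD, n = 4, from 684 to 900), which was 33.9 times the median of the brain regions.

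By the same edgeR test Hsd11b1 was higher than in the rest of the brain in cerebellum (log2 difference 1.83, adjusted p = 4.54e-23), medulla (1.45), pons (1.13), anterior hippocampus (1.06), posterior hippocampus (0.77) and thalamus (0.46). Without the libraries low in markers the pons difference was 1.27 and the hypothalamus difference -0.66 rather than -0.84. Hsd11b1 was lower in olfactory bulb (-2.23), caudate putamen (-1.96), corpus callosum (-1.29), hypothalamus (-0.84) and entorhinal cortex (-0.50). Of all genes, 72% were called for cerebellum, 70.6% for medulla, 61.7% for pons, 39.4% for anterior and 47.7% for posterior hippocampus and 58.5% for thalamus. The share was 74.9% for olfactory bulb, 65.2% for caudate putamen, 54.1% for corpus callosum, 61.8% for hypothalamus and 55.9% for entorhinal cortex. With PBS mice alone, thalamus (0.47, edgeR adjusted p = 0.105) and entorhinal cortex (-0.26, adjusted p = 0.437) were not called. The entorhinal call was also lost without AL mouse 66 or 69 or PBS mouse 76, 80 or 84. SVZ, at -0.33 and uncalled, was called lower without the libraries low in markers (-0.35, edgeR adjusted p = 0.0474) and without AL mouse 68 or PBS mouse 84. None of the 14 Hsd11b1 steps between neighbouring regions was called by edgeR, where 6.7% to 72.8% of all genes were called. A single step, 1 of the 14, had an unadjusted p under 0.05, so the places of single neighbours in this order are not settled.

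Promoter sequence is shown for the members with the widest regional range, to let the stretch before each start be compared. Each line is the 250 bases before a RefSeq transcript start on GRCm38.p6, written 5' to 3' on the gene's own strand. GENCODE M21 lists 7 transcripts of Hsd11b1 and 8 of Nr3c2. Both gene spans begin upstream of the windows shown, so other starts are not covered. The window lies at chr1:193242361-193242610 on the minus strand for Hsd11b1 and at chr8:76902080-76902329 on the plus strand for Nr3c2. Capitals mark CCAAT boxes (CCAAT or ATTGG) and GC boxes (GGGCGG or CCGCCC), searched on both strands.
Hsd11b1: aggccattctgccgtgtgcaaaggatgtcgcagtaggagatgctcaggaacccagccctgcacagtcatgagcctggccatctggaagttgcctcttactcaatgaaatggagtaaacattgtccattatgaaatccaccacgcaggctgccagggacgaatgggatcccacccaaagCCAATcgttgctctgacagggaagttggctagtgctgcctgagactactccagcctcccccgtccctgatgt
Nr3c2: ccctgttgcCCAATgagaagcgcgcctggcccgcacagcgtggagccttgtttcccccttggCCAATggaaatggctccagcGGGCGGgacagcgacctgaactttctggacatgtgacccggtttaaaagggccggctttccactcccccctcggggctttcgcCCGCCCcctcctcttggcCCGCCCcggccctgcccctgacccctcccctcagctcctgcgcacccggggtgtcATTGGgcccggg
The Nr3c2 window was 68.4% G and C and held 3 CCAAT boxes (241, 188 and 12 bases before the start) and 3 GC boxes (168, 85 and 67 bases before it). The Hsd11b1 window was 54.4% G and C and held 1 CCAAT box, 72 bases before the start, and 0 GC boxes. Neither held TATAAA or its reverse complement. The receptor half-site, searched as TGTTCT and its reverse complement, was in neither. Among 32851 RefSeq windows of the same length, 33.8% held a CCAAT box, 32.7% a GC box, 12.4% a TATAAA and 16.1% a half-site, and the median G and C content was 52.4%.

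In the annotation, Nr3c2 (ENSMUSG00000031618) spans chr8:76899442-77245012 and Hsd11b1 (ENSMUSG00000016194) spans chr1:193221634-193264075. The libraries carry no strand, and 247 exonic bases of Nr3c2, 3.82% of its exons, overlap the antisense gene Gm10649, whose reads cannot be told apart there. Hsd11b1 lies inside the span of Lamb3, which is on the other strand, with 0 shared exonic bases. Lamb3, a laminin chain gene, averaged 0.686 to 9.42 CPM over the regions.

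The regional patterns were much alike in both control groups. Pearson's r between the AL and PBS regional means over the 15 regions was 0.98 for Nr3c1, 0.98 for Nr3c2 and 0.94 for Hsd11b1, beside a median of 0.93 over all genes. The members did not share a pattern among themselves: r lay between -0.28 and 0.15 for the 3 pairs in either control group. Genes were ranked by the lower of the r values in AL and in PBS mice over the 15 regions among 15263 genes. Nearest to Nr3c1 were Plxdc1 (0.85), the sodium channel subunit Scn2b (0.83), the adhesion molecule Cntn4 (0.81), Pcsk2os1 (0.81) and Smim10l1 (0.80). Nearest to Nr3c2 were Tbc1d8b (0.86), Rtl3 (0.85), the kallikrein Klk8 (0.83), the actin regulator Cyfip1 (0.82) and desmoplakin, Dsp (0.82). Nearest to Hsd11b1 were Carmil2 (0.85), the lipid binding protein Osbpl6 (0.85), Yipf3 (0.83), Spag5 (0.83) and Nectin4 (0.83). For none of the 3 did a gene exceed 0.9.

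The balance of both receptors was read as Nr3c2 counts per Nr3c1 count within a library, a ratio that library scaling does not touch. It was highest in anterior hippocampus, 1.15 ± 0.221 (SD, n = 8), followed by choroid plexus (0.936 ± 0.278, SD, n = 8), posterior hippocampus (0.797 ± 0.375, SD, n = 7) and olfactory bulb (0.690 ± 0.0468, SD, n = 8). It was lowest in thalamus, 0.141 ± 0.0201 (SD, n = 8), with liver (0.191), visual cortex (0.203), hypothalamus (0.210) and motor cortex (0.224) just above. The choroid plexus mean includes AL mice 63 and 66, at 1.34 and 1.14, whose libraries were low in choroid plexus markers. Divided by exonic length, which is 7684 bases for Nr3c1 and 6474 for Nr3c2, the Nr3c1 RNA level was 6.04 times the Nr3c2 RNA level in thalamus and 4.38 times in liver. On that per-length scale it was 1.09 times in posterior hippocampus, 0.909 times in choroid plexus and 0.734 times in anterior hippocampus. With the longest coding transcript as length, the anterior hippocampus value was 0.801, so mean Nr3c2 RNA was the higher there on both scales. Single anterior hippocampus libraries held fewer Nr3c2 than Nr3c1 counts, at a ratio of 0.805 in PBS mouse 72 and 0.524 in aDR mouse 67.

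**Figure D3:**
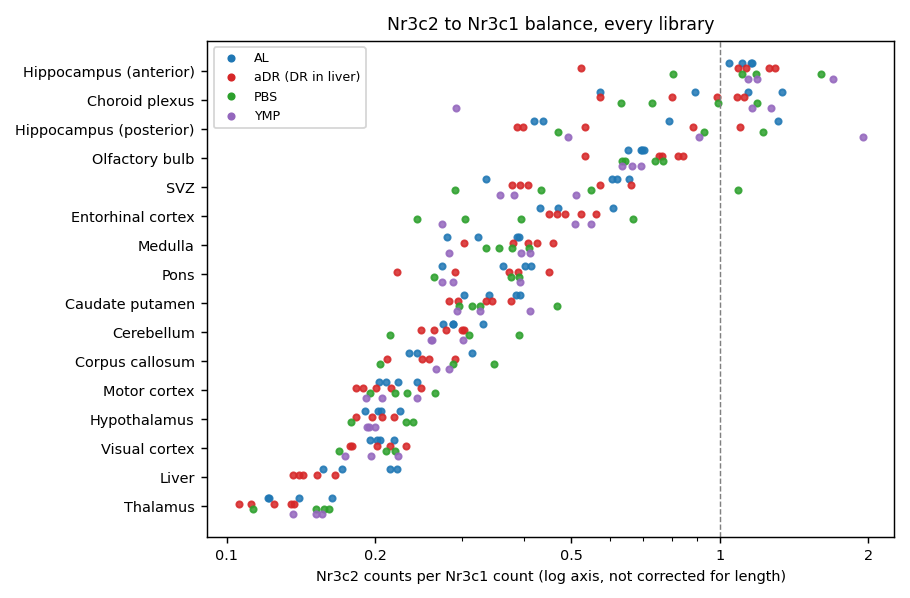
Nr3c2 counts per Nr3c1 count in every library, on a log axis, by region and treatment, with 1 point per library and the dashed line at equal counts. Anterior hippocampus, choroid plexus and posterior hippocampus reach the line, as does the SVZ library of PBS mouse 84, and thalamus is lowest.

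The other enzymes of the route differed by region as well. H6pd averaged 155 CPM ± 31.9 (SD, n = 9, both diets) in liver and 16.2 ± 2.70 (SD, n = 15, all treatments) in cerebellum, the brain region with the most Hsd11b1. The other 14 brain regions averaged 5.52 to 9.26 CPM of H6pd. Hsd11b2, the inactivating enzyme, was near 0, with regional means of 0.00916 to 0.141 CPM, and no library exceeded 0.562 CPM.

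The treatments were tested next, first within each region. In 93 tests of the 3 genes in 31 comparisons, edgeR called 0 changes after Benjamini-Hochberg adjustment, 4 had an unadjusted p under 0.05, and the lowest adjusted p was 0.377. DESeq2 called 1 of them, and the share of all genes that DESeq2 called is not given here. By edgeR all genes gave few calls in these comparisons too, 0.0525% of gene tests over the 15 brain regions for diet, 0.0127% for plasma and 0.22% in liver. The signs under diet were one-sided for the receptors. Nr3c1 was lower in aDR mice in 15 of 15 brain regions (median log2 difference -0.06) and Nr3c2 in 13 of 15 (median -0.14), while Hsd11b1 was higher in 11 of 15 (median 0.12). All regions come from the same 9 mice, so these counts are not independent, and none of the single differences was called. Under plasma, Nr3c1 was lower in 11, Nr3c2 in 12 and Hsd11b1 in 8 of 15 regions. Without PBS mouse 84 the Nr3c2 count under plasma was 6, and without aDR mouse 67 Hsd11b1 was lower under diet in 2 regions rather than 4.

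**Figure D4:**
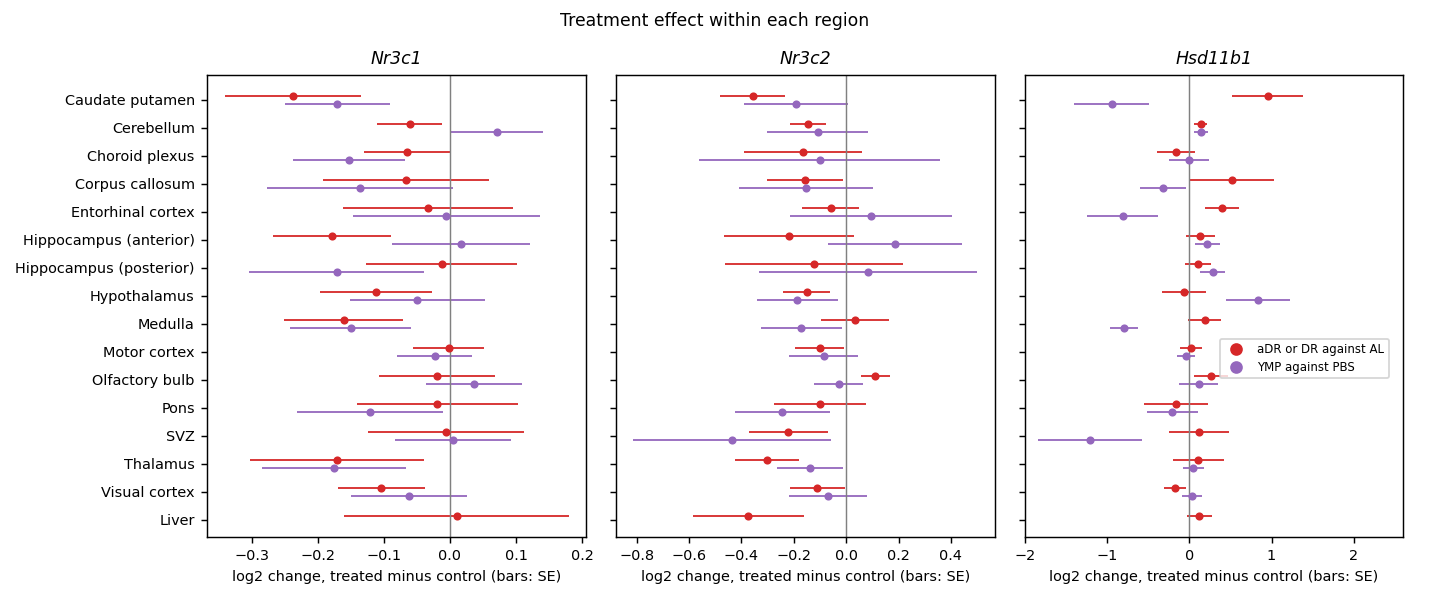
Log2 change of each gene within each region, treated minus control, with bars for the standard error, for diet (aDR, or DR in liver, against AL) and plasma (YMP against PBS). Nr3c1 points for diet lie left of 0 in all 15 brain regions and close to it, and the Hsd11b1 points scatter most, with wide bars in caudate putamen and SVZ.

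Hsd11b1 in the medulla of the plasma experiment had the smallest p of the 93 tests. PBS mice held 76.7, 52.1, 73.3 and 89.9 CPM, and YMP mice 42.2, 50.8 and 36.1 CPM. Every YMP value was under every PBS value, which was the case for 4.11% of all genes in that region. The log2 difference was -0.79 (SE 0.170), with an edgeR adjusted p of 0.438 over all genes, and DESeq2 gave -0.78 with an adjusted p of 0.0114, so the call depends on the tool. The share of all genes that DESeq2 called in this region is not given here. AL females held 32.4 to 47.8 CPM and aDR females 24.7 to 56.8 CPM in the medulla, near the YMP values. These females are of the other experiment, so sex and experiment cannot be told apart where they are set beside the males. The library of PBS mouse 84, the highest in Hsd11b1, also held 308 CPM of choroid plexus markers and 94.0 CPM of cerebellum markers, where the other medulla libraries of that experiment held 18.7 to 35.4 CPM of cerebellum markers. The part of these markers in the difference was not tested.

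Other single regions gave the following values. In hypothalamus PBS mice held 4.88, 14.2 and 13.5 CPM of Hsd11b1 and YMP mice 24.0, 15.7 and 15.6 CPM. The YMP values were all above the PBS values, as for 4.5% of genes, but the difference of 0.83 was not called (edgeR adjusted p = 0.998). The library at 4.88 CPM held 316 CPM of hypothalamus markers against a regional median of 1937. In caudate putamen Hsd11b1 differed by 0.95 under diet (edgeR adjusted p = 0.618) and by -0.94 under plasma (adjusted p = 0.515), at levels of 2.03 to 13.6 CPM over all 16 libraries. In SVZ the plasma difference was -1.20 (edgeR adjusted p = 0.455), beside choroid plexus markers of 2770 to 19432 CPM in PBS and 6.29 to 10.6 CPM in YMP libraries.

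Among the 15 brain regions, the diet differences of both receptors were largest in caudate putamen, though not called. Nr3c1 was 125, 135, 118 and 123 CPM in AL and 110, 118, 75.8, 115 and 98.8 CPM in aDR mice, a log2 difference of -0.24 (SE 0.103, edgeR adjusted p = 0.618). The values of both groups just met, and 1 aDR library at 75.8 CPM was far under the rest. Under plasma the same region gave 136, 136, 125 and 142 CPM in PBS and 118, 120 and 123 CPM in YMP mice (-0.17, edgeR adjusted p = 0.503). Every YMP value was under every PBS value, as for 6.37% of genes in that direction. Nr3c2 there was 48.3, 40.9, 46.3 and 41.9 CPM in AL and 32.5, 33.3, 25.3, 43.1 and 34.2 CPM in aDR mice (-0.36, edgeR adjusted p = 0.618). A single aDR value reached into the AL range. In thalamus Nr3c2 was 27.8, 26.4, 27 and 24.6 CPM in AL and 20.3, 27.3, 20.4, 18.9 and 17.3 CPM in aDR mice (-0.30, edgeR adjusted p = 0.990). Again all but 1 of the aDR values were under the AL values.

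In the anterior hippocampus, the region richest in Nr3c2, Nr3c1 was the receptor gene whose groups parted. Nr3c1 was 130, 129, 123 and 120 CPM in AL and 102, 118, 110, 116 and 94.7 CPM in aDR mice. Every aDR value was under every AL value, as for 1.44% of genes in that direction. The difference of -0.18 was not called (edgeR adjusted p = 1). Nr3c2 was 145, 134, 142 and 140 CPM in AL and 111, 134, 139, 151 and 49.6 CPM in aDR mice, with broad overlap and 1 low library, that of mouse 67. That library also held the fewest hippocampus markers of the 16.

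In pons the libraries low in brainstem markers were also low in Hsd11b1. The 4 libraries with brainstem markers of 4.23 to 26.2 CPM (aDR mice 64 and 67, AL mouse 68, YMP mouse 77) held 12.5 to 26.8 CPM of Hsd11b1. The other 11, with markers of 61.7 to 120 CPM, held 41.7 to 61.4 CPM. The receptors did not part in this way: Nr3c1 was 75.0 to 104 and 78.5 to 95.8 CPM and Nr3c2 21.6 to 28.4 and 22.3 to 37.8 CPM in the same sets of libraries. These sets were formed by markers after the values were seen and carry no test. The share of all genes that part between them is not given here, so the split is not read as particular to Hsd11b1.

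Across the brain, each mouse was then given 1 value per gene, its level over all its regions with the regional means taken out, and the mice were compared with limma. Diet gave -0.09 for Nr3c1 (log2, SE 0.0430, 95% interval -0.18 to 0.01, limma adjusted p = 0.329) and -0.15 for Nr3c2 (SE 0.0651, interval -0.30 to -0.01, limma adjusted p = 0.270). Hsd11b1 differed by 0.12 (interval -0.25 to 0.48, limma adjusted p = 0.783). None was called, beside 1.75% of 15616 genes, and the mouse values of the groups overlapped for all 3, whereas they did not for 8.3% of genes. With every library in 1 fit and the mouse as a random block (voom), Nr3c1 gave -0.09 with an adjusted p of 0.0411 and was called. The share of all genes called in that fit is not given here. Mouse 67 was the lowest of the 9 in all 3 genes, at 6.75 log2 CPM for Nr3c1, 5.17 for Nr3c2 and 3.88 for Hsd11b1. Without it the diet difference was -0.09 for Nr3c2 (limma adjusted p = 0.256) and 0.27 for Hsd11b1 (adjusted p = 0.205).

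**Figure D5:**
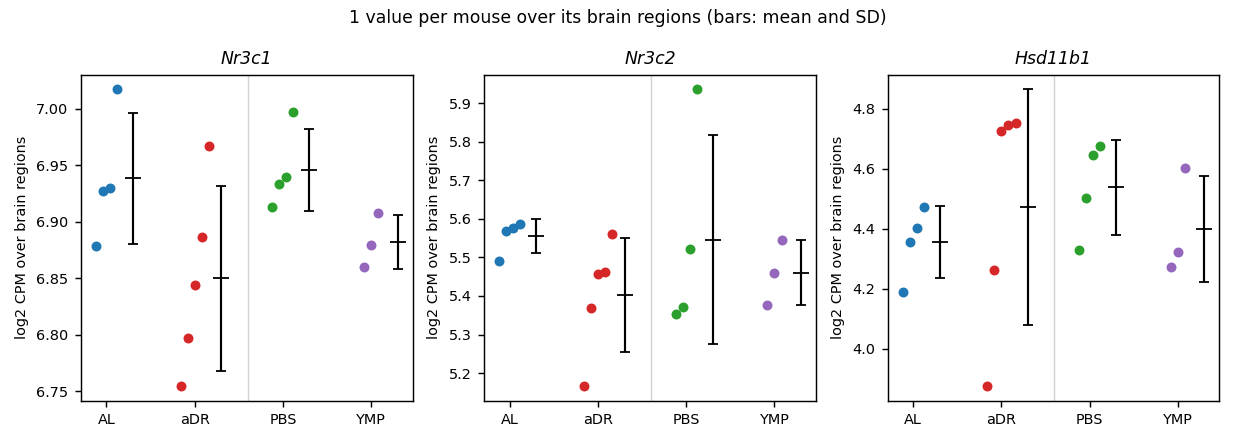
Level of each gene over the brain regions of 1 mouse, in log2 CPM, by treatment, with bars for the mean and SD beside the points. The aDR and AL mice overlap for all 3 genes, and the YMP mice all lie under the PBS mice for Nr3c1 by a small margin.

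Plasma gave -0.06 for Nr3c1 (SE 0.0338, limma adjusted p = 0.636), -0.08 for Nr3c2 (adjusted p = 0.867) and -0.14 for Hsd11b1 (adjusted p = 0.748). The share of genes called was 0%, with 1317 of 15768 genes at an unadjusted p under 0.05. YMP mice held 6.86 to 6.91 and PBS mice 6.91 to 7.0 log2 CPM of Nr3c1, without overlap, as for 10.1% of genes in either direction. The Nr3c2 value rested on PBS mouse 84, at 5.94 log2 CPM the highest of the 7 mice, and was 0.04 without it.

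The effects did not differ detectably between regions or experiments. An edgeR F test of region by diet gave an adjusted p of 1 for all 3 genes (0.0128% of genes called). For plasma Hsd11b1 had F = 2.18 and an adjusted p of 0.407, and both receptors 1 (0.824% of genes called). The diet effect minus the plasma effect was -0.02 for Nr3c1, -0.07 for Nr3c2 and 0.25 for Hsd11b1 (limma adjusted p of 0.905, 0.898 and 0.706, 0.232% of genes called). These intervals are wide for Hsd11b1, with an SE of 0.230, and so do not show that the effects were alike.

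In liver, the tissue of highest Hsd11b1, restriction left all 3 genes without a called change. Hsd11b1 was 900, 820, 684 and 838 CPM in AL and 820, 845, 763, 916 and 889 CPM in DR mice, a difference of 0.12 (SE 0.151, edgeR adjusted p = 0.914). The groups overlapped widely. Nr3c1 was 110, 138, 108 and 101 CPM in AL and 105, 133, 132, 116 and 69.5 CPM in DR mice (0.01, SE 0.170, edgeR adjusted p = 0.994). Nr3c2 was 24.2, 29.5, 16.8 and 17.3 CPM in AL and 17.3, 20.1, 18.8, 15.7 and 9.71 CPM in DR mice (-0.37, SE 0.212, edgeR adjusted p = 0.673). The lowest value of both receptors was that of a single DR mouse, number 67. The liver effect minus the brain effect was 0.08, -0.21 and 0.01 for Nr3c1, Nr3c2 and Hsd11b1 (limma adjusted p of 0.974, 0.919 and 0.999, with 0.0705% of genes called).

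The balance of Nr3c2 to Nr3c1 was compared by a two-sided exact permutation test over mice. Across the brain the log2 ratio was -1.45 ± 0.0815 (SD, n = 5) in aDR and -1.39 ± 0.0978 (SD, n = 4) in AL mice (exact permutation p = 0.381). Under plasma the difference was -0.02 (exact permutation p = 1, where 0.0571 is the smallest this design allows). In liver the log2 ratio was -2.77 ± 0.113 (SD, n = 5) in DR and -2.40 ± 0.243 (SD, n = 4) in AL mice, with overlap between -2.88 to -2.59 in DR and -2.67 to -2.18 in AL mice. The exact permutation p was 0.0317, or 0.0952 adjusted over the 3 comparisons, so this difference of -0.36 did not hold after adjustment.

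Lists of related genes show what moved around the receptors under diet across the brain. Of 20 glucocorticoid target genes, 7 rose and 0 fell by limma, beside 1.75% of all genes called, and the median of the list was 0.29 against -0.01 for all genes. The genes that rose were Plin4, which coats lipid droplets (log2 2.03, limma adjusted p = 0.00278), Tsc22d3, the anti-inflammatory GILZ (0.50, 0.00451), Hif3a (1.09, 0.00793), the transcription factor Zbtb16 (0.57, 0.00965), the clock gene Per1 (0.33, 0.0121), the sulfotransferase Sult1a1 (0.84, 0.0360) and the chaperone partner Fkbp5 (0.56, 0.0458). In limma without a mean-variance trend Fkbp5 was at an adjusted p of 0.0942 and Sult1a1 at 0.0714. Each of these 2 also lost its call when any 1 mouse other than aDR mouse 65 or 67 was left out. The kinase Sgk1, a target of both receptors, was 0.62 higher but not called (limma adjusted p = 0.0734). The list was drawn up with earlier results of these mice known, so its direction is no independent evidence. In the fit with the mouse as a block 15 of the 20 were called. The share of all genes called in that fit is not given here, so this count is not read as a result about the targets.

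Of 13 chaperones, 0 rose and 1 fell, the Hsp70 and Hsp90 adaptor Stip1 (-0.14, limma adjusted p = 0.0241, or 0.0549 without the trend, and not called without aDR mouse 62 or AL mouse 66, 68 or 69), and the Hsp90 partner Fkbp4 was at -0.01 (adjusted p = 0.921). Limma called 0 of 15 coregulators (5 had an unadjusted p under 0.05), 0 of 11 tested genes of local steroid metabolism (1 such, 18 listed), 0 of 9 tested genes of the CRH, ACTH and vasopressin system (1 such, 12 listed) and 0 of 5 other steroid receptors (1 such). Of all 15616 genes 2619 had an unadjusted p under 0.05 for diet. Among the listed genes, H6pd was at 0.12 (limma adjusted p = 0.319) and the CRH receptor Crhr1 at -0.06 (adjusted p = 0.769). Under plasma, limma called 0 genes of any list. Of the targets 5 had an unadjusted p under 0.05, of the chaperones 2, of the CRH system 2 and of the other lists 0. The 20 targets had a median of 0.23 with 16 higher, beside a median of -0.004 for all genes, with 7607 of 15768 higher. In liver edgeR called 2 of 19 tested targets higher and 0 lower, beside 0.22% of all genes called. The targets were Plin4 (2.80, adjusted p = 0.00495) and Zbtb16 (1.66, adjusted p = 0.0153). Of the other lists 0 genes were called. There, 3 genes of local steroid metabolism and 1 of the CRH system had an unadjusted p under 0.05, as had 1074 of all 11815 genes. Serpina6, the corticosteroid binding globulin made by liver, was at 1.07 (edgeR adjusted p = 0.739).

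The regional level of the members was also set beside the regional size of the target response. Over the 15 regions, the level in PBS mice, which are no part of the diet comparison, was set against the mean diet difference of the 20 targets. Pearson's r was 0.23 for Nr3c1, -0.34 for Nr3c2 and 0.19 for Hsd11b1, and Spearman's rho 0.24, -0.28 and 0.19. The Nr3c1 value was 0.07 without the 2 regions of most extreme level. For Fkbp5, Tsc22d3 and Sgk1 taken singly, r ran from -0.49 (Nr3c2 with Fkbp5) to 0.50 (Nr3c1 with Tsc22d3). The regional diet differences share the same 9 mice, and these values are a description without a test.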

How the data were processed

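RNA of 15 brain regions and liver was measured by bulk sequencing of unstranded Smart-Seq2 and Nextera XT libraries, per the labels. The deposited values are whole-number read counts per gene, made by the authors. The submitters' processing notes name Trim Galore 0.3.7, STAR 2.5.3a, DESeq2 and GRCm38. The counting program and annotation are not given in the sources used here. Gene spans come from GENCODE M21 and promoters from RefSeq.

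Groups follow the labels for region, treatment and mouse number. The 3 genes and all lists were chosen with earlier results of these data known. Genes passed filterByExpr (minimum count 10, minimum total 15) and counts were scaled by TMM. Within regions edgeR 4.0.16 (R 4.3.3) tested treated against control. Across the brain limma 3.58.1 compared 1 value per mouse from log2 CPM (prior count 2). Calls needed a Benjamini-Hochberg adjusted p under 0.05. The receptor ratio used a pseudocount of 0.5. List genes were named if called, up to 6 a list by p, together with 8 set ones (Fkbp5, Tsc22d3, Sgk1, H6pd, Hsd11b2, Serpina6, Fkbp4, Crhr1), and the 5 genes most like each member. DESeq2 1.42.0 and other scalings, filters, prior counts and left-out mice were alternatives. The tests were checked on simulated counts drawn for each library on its own. That check cannot show how the tests behave when regions share a mouse. Deviations from group means correlated at 0.0400 within a mouse and -0.00490 across mice in the dietary experiment. In the plasma experiment these values were 0.0717 and -0.0120. The mouse number, a shared animal per the labels, was therefore the unit across the brain and a block in alternative fits. The main region tests in control mice, with experiment as covariate, and the main F tests of region by treatment had no mouse block. Over 357 replicate pairs chi-square per degree of freedom was at least 1.29, and all libraries were kept. Reads carry no molecular identifiers. No batch is given in the labels. Relations of Nr3c2 with a further marker list, which include the strongest one in posterior hippocampus, are not reported here.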

Additional observations from a re-analysis of the deposited data

Results flagged for a closer look

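Of 131 groups of 4 or 5 values examined, 8 held a value far from the others by Dixon's criterion, which chance gives in about 1 of 20 groups. For Nr3c1 these were the olfactory bulb of aDR mouse 65, at 114 CPM beside 78.8 to 81.1 in the other aDR mice, and the motor cortex of PBS mouse 76, at 159 CPM beside 167 to 168. The olfactory bulb library had 1.83 M (mega) counts. For Nr3c2 they were the entorhinal cortex of aDR mouse 64 (41.2 CPM beside 52.2 to 54.5), the SVZ of AL mouse 66 (47.3 CPM beside 72.3 to 74.6) and the caudate putamen of PBS mouse 84 (66.0 CPM beside 40.2 to 42.9). For Hsd11b1 they were the anterior hippocampus of AL mouse 66 (34.2 CPM beside 46.2 to 47.6) and the pons of AL mouse 68 (18.6 CPM beside 47.7 to 48.5). The log2 balance of Nr3c2 to Nr3c1 over the brain was -1.59 in aDR mouse 67, beside -1.43 to -1.39 in the other aDR mice.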

How the results depend on the processing

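Most results kept their direction and side of the threshold under other scalings, filters, prior counts and left-out mice. Calls across the brain depended on how the mouse entered the fit. The main test, on 1 value per mouse, did not call Nr3c1 under diet. With every library in 1 fit and the mouse as a replicate block (voom) Nr3c1 under diet was -0.0909 and called, and 15 targets rose. With no block, which takes the regions of 1 mouse as independent, Nr3c1 (-0.0913) and Nr3c2 (-0.151) were called and 18 targets rose. The share of all genes called in these voom fits is not given here. The replicate block changed no other call of a member in the tests of diet and plasma across the brain. Leaving out the 9 libraries low in the markers of their region, the YMP mouse 73 choroid plexus library or the posterior hippocampus, choroid plexus and SVZ, and limma without a trend, were chosen after seeing the data. Without the 9 libraries 7 targets rose, and Nr3c1, Nr3c2 and Hsd11b1 under diet were -0.09, -0.14 and 0.12, all uncalled. With DESeq2, Hsd11b1 was called under plasma in 1 region, where the share of all genes called by DESeq2 is not given. With PBS mice alone, Nr3c2 was called lower in 3 regions. Without a low-count filter, Nr3c1 in liver was -0.0027, Nr3c1 in posterior hippocampus 0.0068 and Nr3c2 in entorhinal cortex 0.0070, all uncalled. Against the other regions, Nr3c1 was 0.0070 in anterior hippocampus with AL mice alone and 0.055 in posterior hippocampus with PBS mice alone. Nr3c2 was -0.015 (AL mice alone) and -0.050 (all mice) in caudate putamen, and 0.17, 0.097 and 0.073 in entorhinal cortex with AL mice alone, with all mice and without choroid plexus. Fkbp4 was 0.0028 without choroid plexus. The cause of these shifts was not tested.

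Leaving out each mouse in turn gave -0.0261 to 0.0131 for Fkbp4 under diet, -0.0301 to 0.0390 for Nr3c1 in posterior hippocampus and -0.0734 to 0.0762 for Nr3c2 in entorhinal cortex. It gave -0.155 to 0.0391 for Nr3c2 under plasma, -0.0523 to 0.00251 and -0.192 to 0.00276 for the diet minus plasma difference of Nr3c1 and Nr3c2, and -0.0602 to 0.111 for Nr3c1 in liver. The range was -0.00216 to 0.173 and -0.202 to 0.0940 for the liver minus brain difference of Nr3c1 and Hsd11b1. The receptor balance ran from -0.113 to -0.0292 under diet (exact permutation p = 0.0357 without AL mouse 66), from -0.0874 to 0.0891 under plasma and from -0.450 to -0.284 in liver, where the exact permutation p ran from 0.0286 to 0.0714. The count of targets that rose was 5 to 8. At counts as low as 3, depth limits Hsd11b1 in caudate putamen and olfactory bulb.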
